A study of Arabidopsis thaliana with 13 samples.

Results

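The shade avoidance regulators described here, 9 of the 33033 genes in the deposited table, were followed across the study's 5 groups of dark-grown Arabidopsis thaliana seedlings. They were chosen by name, with earlier results of these data known. Of the 9, 5 are the class II homeodomain leucine zipper (HD-Zip II) genes HB-2, HAT1, HAT2, HAT3 and HB4. The other 4 are PAR1, PAR2, HFR1 and PIL1 of the basic helix-loop-helix (bHLH) class and its relatives. All 9 had a row in the table, and all 9 were among the 21091 genes that reached 1 TPM (transcript abundance scaled by gene length and library total) in at least 2 libraries and were tested. Seedlings received 6 h of white light and then stood in darkness at 22 °C for 4 days, after which they spent 4 h in liquid medium and were harvested whole. Wild-type Col-0 seedlings received the solvent DMSO at 1‰ (mock), 30 µM pifithrin-alpha (PFT-alpha, known as an inhibitor of p53 in mammalian cells) or 10 µM ACC, which plants convert to the hormone ethylene, with 3 libraries per treatment. Seedlings of etr1-1, a dominant missense allele of the ethylene receptor gene ETR1 that makes plants insensitive to ethylene, received mock or PFT-alpha, with 2 libraries each, and no etr1-1 group with ACC was analysed here. The labels give a DMSO level for the mock groups and none for the PFT-alpha or ACC groups. They also do not say how many seedlings were pooled or whether the replicates were grown apart, so p-values measure the spread between these libraries, which may be technical.

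HD-Zip II proteins bind DNA as dimers through a homeodomain next to a leucine zipper, and most of them repress transcription. HB-2, also called ATHB2, is a classical marker of the response to low red to far-red light: light sensed by phytochrome B removes the phytochrome-interacting factors (PIFs), and under shade or in darkness the PIFs accumulate and induce HB-2 and its relatives, with elongation of the hypocotyl as the outcome. HFR1, PAR1 and PAR2 are induced by the same factors and act back on them: HFR1 forms dimers with PIFs that do not bind DNA, and PAR1 and PAR2 are small proteins that sequester bHLH factors. PIL1 is induced rapidly by shade and also pairs with PIFs. Ethylene lengthens the hypocotyl in light and shortens it in darkness, and ETR1 is one of the receptors that silence the pathway until the hormone binds. In whole seedlings, fewer cells of a type and less RNA per cell cannot be told apart.

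Several libraries stood apart from the others, and this touches the results below. The 3 wild-type libraries numbered 3, 1 per treatment, lay at 74.3 to 87.0 on the first principal component, which held 44.7% of the variance, and the other 10 libraries between −35.2 and −9.54. In those 3 libraries the summed level of 9 greening cotyledon genes (antenna and Rubisco small subunit) was 46050 to 56640 TPM, against 19465 to 27332 TPM in the other wild-type libraries, and that of 5 root genes was 1779 to 2291 TPM against 3542 to 6016 TPM. The library labelled etr1-1 mock 1 did not look like its partner: the summed level of 10 ethylene response genes was 1613 TPM in it and 512 TPM in etr1-1 mock 2, where wild-type mock libraries had 652 to 783 TPM and wild-type ACC libraries 1423 to 1651 TPM. The 9 seed storage genes summed to 332 TPM in etr1-1 mock 1, inside the 251 to 792 TPM of wild-type replicates 1 and 2, and to 4178 TPM in etr1-1 mock 2 and 4600 and 4705 TPM in etr1-1 with PFT-alpha. A missense allele leaves the level of ETR1 RNA uninformative about the genotype. The TPM steps of low genes put the depth at about 20200000 to 29600000 fragments per library.

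The HD-Zip II genes were expressed at different heights. HAT2 (AT5G47370, TAIR10.1 chr5:19216271-19218007, minus strand, 4 exons) averaged 101 TPM over the 13 libraries, HAT3 (AT3G60390, chr3:22320580-22322661, minus) 40.3 TPM, HAT1 (AT4G17460, chr4:9739518-9741234, plus) 35.0 TPM and HB-2 (AT4G16780, chr4:9449114-9450905, plus) 31.9 TPM. HB4 (AT2G44910, chr2:18517656-18519731, minus) stood at 4.78 TPM, higher than 24.9% of the tested genes, and rested on an estimated 51.9 to 171 fragments per library, so its values are the least precise of the 9. The other 8 genes rested on at least 265 estimated fragments in every library.

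HAT1 and HAT2 are close relatives, and the most alike ungapped stretch of their upstream bases, 105 long, is shown because its matches to CACATG still differ. In TAIR10.1 the stretch lies 971 to 867 bases before the annotated start of HAT1 (chr4:9738547-9738651, plus strand) and 648 to 544 bases before that of HAT2 (chr5:19218551-19218655, minus strand). Of the 105 bases, 85 (81.0%) were identical without a gap. Capitals mark CACATG on either strand, the E-box variant to which PIFs are known to bind.
HAT1: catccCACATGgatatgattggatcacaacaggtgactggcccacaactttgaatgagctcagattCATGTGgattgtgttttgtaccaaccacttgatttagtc
HAT2: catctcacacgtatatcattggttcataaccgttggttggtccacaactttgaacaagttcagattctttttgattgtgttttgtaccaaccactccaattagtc
The HAT1 stretch held 2 matches and the HAT2 stretch 0. The 1000 bases before the HAT2 start held 3 matches in other places, and those before the HAT1 start held only the 2 shown. The contrast between both genes thus holds for this stretch and not for the 1000 bases.

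HB-2 and HAT1 were the members with a match to CAATNATTG within 1000 bases of the start. This is a loose form of the site of HD-Zip proteins, in which N is any base. A match with any middle base was present before 3.44% of 27443 protein-coding genes. The middle base was A before HB-2 and G before HAT1, and binding of HD-Zip II proteins to either form was not tested. Both are shown with 36 bases, the match in capitals: HB-2 from 490 to 455 bases before the start (chr4:9448624-9448659, plus) and HAT1 from 751 to 716 bases before it (chr4:9738767-9738802, plus).
HB-2: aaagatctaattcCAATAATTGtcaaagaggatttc
HAT1: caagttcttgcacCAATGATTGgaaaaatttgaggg
A match of letters is a description and not a shown binding site.

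HAT1 was lower under ACC than in the other treatments. It stood at 50.5, 51.1 and 33.8 TPM in wild-type mock replicates 1, 2 and 3, at 46.0, 47.8 and 35.2 TPM under PFT-alpha, and at 20.9, 17.9 and 14.2 TPM under ACC. All 3 ACC libraries lay below all 6 other wild-type libraries, and mock and PFT-alpha libraries overlapped. The mean was 45.1 ± 9.80 TPM (SD, n = 3) in mock, 43.0 ± 6.84 TPM under PFT-alpha and 17.7 ± 3.39 TPM under ACC, so ACC libraries were 2.55-fold lower than mock. In etr1-1 mock replicates 1 and 2 HAT1 stood at 18.1 and 36.7 TPM, and in the PFT-alpha replicates at 40.9 and 41.7 TPM. The library labelled etr1-1 mock 1 thus fell inside the range of the ACC libraries, and the other 3 etr1-1 libraries inside that of wild-type mock.

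HB-2 had a narrower range. It stood at 41.0, 39.4 and 31.1 TPM in wild-type mock, at 39.2, 42.0 and 34.0 TPM under PFT-alpha and at 20.8, 22.1 and 23.0 TPM under ACC. The ACC libraries again lay below the other 6, by 1.69-fold against the mean of mock. The etr1-1 mock libraries, at 26.4 and 28.7 TPM, lay between the ACC and mock ranges of the wild type, and the etr1-1 PFT-alpha libraries, at 35.3 and 31.8 TPM, inside its mock range.

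HAT2 followed the same order with a smaller span. Its levels were 131, 126 and 97.6 TPM in wild-type mock, 133, 122 and 94.1 TPM under PFT-alpha, and 73.6, 82.9 and 76.7 TPM under ACC. The ACC libraries lay below all others of the wild type, 1.52-fold below the mean of mock. HAT2 stood at 84.8 and 91.1 TPM in etr1-1 mock and at 103 and 94.1 TPM in etr1-1 with PFT-alpha.

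HAT3 and HB4 were lower under ACC than in mock in each same-numbered pair, but their ACC and mock libraries overlapped. HAT3, which acts with HB4 and HB-2 in leaf polarity, varied little, from 34.2 TPM in an ACC library to 46.4 TPM in a mock library over all 13. Its ACC libraries, at 34.2, 36.6 and 39.1 TPM, overlapped those of mock, at 36.8, 37.9 and 46.4 TPM. HB4 stood at 4.73, 5.19 and 6.06 TPM in mock, at 4.29, 4.60 and 5.30 TPM under PFT-alpha and at 2.91, 2.95 and 4.78 TPM under ACC, where replicate 3 reached the mock range. In etr1-1 it was 3.29 and 5.66 TPM in mock and 6.38 and 6.06 TPM under PFT-alpha.

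**Figure D1:**
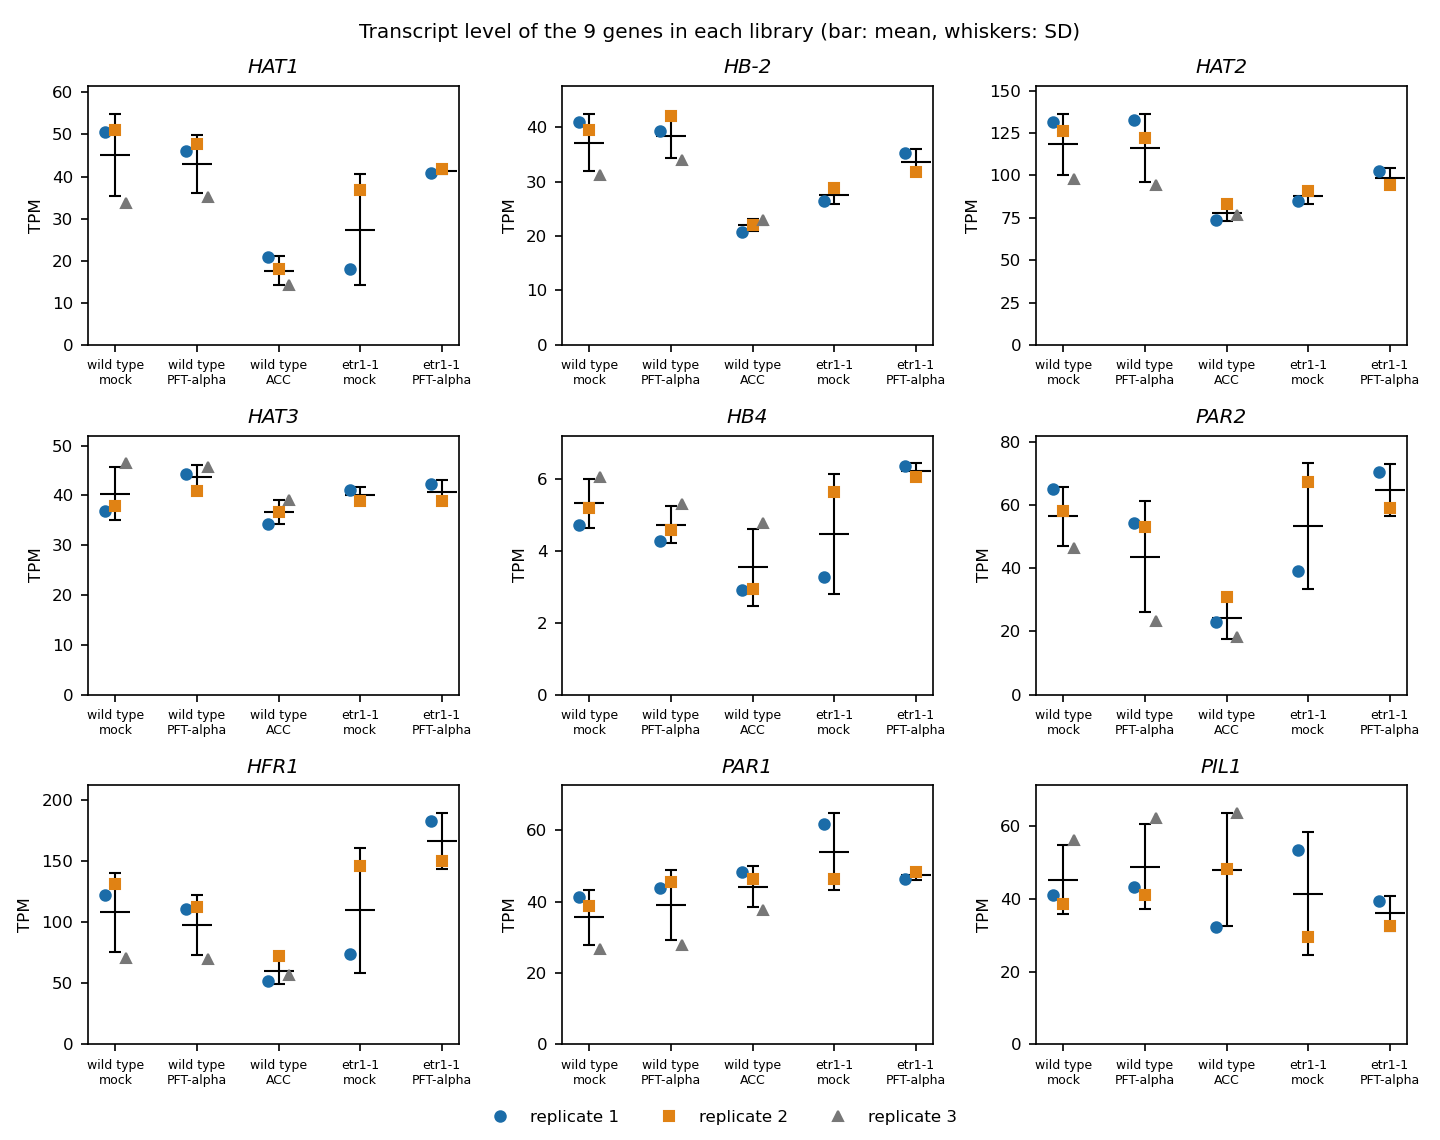
TPM of each gene (vertical axis, from 0) in every library of the 5 groups, with points for replicates 1, 2 and 3, a bar for the group mean and whiskers for the SD. HAT1, HB-2, HAT2 and PAR2 were lower in all 3 ACC libraries than in all 3 wild-type mock libraries, and the etr1-1 mock pair was far apart for HAT1 (18.1 and 36.7 TPM) and HFR1 (73.6 and 146 TPM).

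PAR1 (AT2G42870, chr2:17836416-17837618, minus) and PAR2 (AT3G58850, chr3:21759350-21760390, minus) are single-exon relatives with the same known function, and the same window before each start, 785 to 715 bases upstream, held a cluster of CACATG matches. The 71 bases are shown because they hold most of the CACATG matches of both genes; PAR1 lies at chr2:17838333-17838403 and PAR2 at chr3:21761105-21761175, both on the minus strand of TAIR10.1.
PAR1: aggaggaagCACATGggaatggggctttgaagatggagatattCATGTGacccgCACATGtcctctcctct
PAR2: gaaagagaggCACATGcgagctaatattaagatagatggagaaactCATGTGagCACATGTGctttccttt
The window held 3 matches before PAR1 and 4 before PAR2, of which the last pair overlap each other. Over 1000 bases CACATG was found before 6 of the 9 genes and before 37.7% of all protein-coding genes. The G-box CACGTG was found before PAR1 and HFR1, and before 14.8% of all. ATGNANCT, a loose form of the site of the ethylene factor EIN3, was found before 6 of the 9 and before 48.2% of all, and its HAT1 match overlaps a CACATG match.

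PAR2 stood at 64.9, 58.0 and 46.3 TPM in wild-type mock and at 23.0, 30.9 and 18.3 TPM under ACC, without overlap and 2.34-fold lower by the means. Under PFT-alpha it stood at 54.3, 53.0 and 23.3 TPM, so that replicate 3 alone lay in the ACC range. PAR1 stood at 41.3, 38.7 and 26.7 TPM in mock and at 48.4, 46.4 and 37.6 TPM under ACC. Its ACC value was above the mock value in each same-numbered pair, by 0.22, 0.26 and 0.48 on the log2(TPM + 1) scale, while the groups overlapped. Under PFT-alpha PAR1 stood at 43.9, 45.6 and 27.9 TPM.

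In etr1-1 PAR2 stood at 39.2 and 67.3 TPM in mock and at 70.5 and 59.0 TPM under PFT-alpha. PAR1 stood at 61.7 and 46.3 TPM in mock and at 46.5 and 48.3 TPM under PFT-alpha. The library labelled etr1-1 mock 1 had the lowest PAR2 and the highest PAR1 of the 4 etr1-1 libraries.

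HFR1 (AT1G02340, chr1:465616-467880, minus, 5 exons) had the highest mean of the 9, at 104 TPM. It stood at 122, 132 and 70.9 TPM in wild-type mock, at 111, 113 and 69.5 TPM under PFT-alpha and at 51.4, 72.5 and 56.9 TPM under ACC. The ACC value was below the mock value in each pair, and the groups overlapped because mock replicate 3 was low. In etr1-1 HFR1 stood at 73.6 and 146 TPM in mock and at 183 and 150.1 TPM under PFT-alpha. Both PFT-alpha values and that of mock replicate 2 lay above every wild-type library.

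PIL1 (AT2G46970, chr2:19295431-19297858, minus, 6 exons) showed no common direction. It stood at 41.0, 38.7 and 56.3 TPM in wild-type mock, at 43.3, 41.1 and 62.3 TPM under PFT-alpha and at 32.4, 48.2 and 63.6 TPM under ACC. Replicate 3 was the highest in each treatment. In etr1-1 it stood at 53.5 and 29.4 TPM in mock and at 39.5 and 32.6 TPM under PFT-alpha.

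The comparison of ACC with mock addresses how these genes respond to the ethylene precursor in darkness. In limma with 1 mean per group over all 13 libraries, on log2(TPM + 1) with Benjamini-Hochberg adjustment over 21091 genes, 0 of the 9 passed an adjusted p of 0.05, with values from 0.149 for HAT1 and HB-2 to 1. That fit called 2 genes in all, which is 0.00948% of the tested genes, and 1769 genes had an unadjusted p under 0.05. The wild-type libraries were also compared as pairs, with the replicate number as a block over all 9. Deviations from the group means set replicate 3 apart (r of −0.64 to −0.34 with the others) and did not separate replicate 1 from replicate 2, which correlated across numbers at 0.29 to 0.54. In the block fit 5 of the 9 fell and 0 rose, where 5.5% of all tested genes were called, 3.93% lower and 1.57% higher. The 9 were chosen with earlier results of these data known, so counts of them beside such shares are descriptions and no test.

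HAT1 fell by 1.30 on the log2 scale in the block fit (SE 0.092, limma adjusted p = 0.00112), with pair differences of −1.23, −1.46 and −1.20. PAR2 fell by 1.21 (SE 0.19, adjusted p = 0.0128), HB-2 fell by 0.72 (SE 0.11, adjusted p = 0.0141), HFR1 fell by 0.80 (SE 0.17, adjusted p = 0.0418) and HAT2 fell by 0.59 (SE 0.12, adjusted p = 0.0318). HB4 had a difference of −0.50 (adjusted p = 0.0796), PAR1 of 0.32 (adjusted p = 0.127), HAT3 of −0.13 (adjusted p = 0.525) and PIL1 of 0.05 (adjusted p = 0.918). The median of the 9 was −0.59, against −0.0013 over all tested genes, and 2 of the 9 were above 0. In all 3 pairs 7 of the 9 were lower, as were 19.3% of all tested genes, and PAR1 was higher, as were 14.9%. HAT1, HAT2, HB-2 and PAR2 did not overlap between the groups, all lower, as did 7.78% of all, and 0 of the 9 were higher without overlap, as were 4.54%.

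How far these calls hold differed between the genes. When each of the 9 wild-type libraries was left out of the block fit in turn, 218 to 1099 of the 21091 tested genes were called. HAT1 was called in 9 of 9 fits, with limma adjusted p from 0.00392 to 0.02. HB-2 was called in 6, and was not without ACC replicate 2 (0.101), mock replicate 1 (0.0726) or mock replicate 2 (0.0987). PAR2 was also called in 6, and was not without ACC replicate 2 (0.0698), mock replicate 1 (0.065) or mock replicate 3 (0.0656). HAT2 was called in 3 and HFR1 in 1, the one without ACC replicate 3 (0.0127). In the fit of group means, leaving out either etr1-1 mock library left the differences of HAT1 (−1.30) and HB-2 (−0.72) as they were, because neither uses that group. The etr1-1 mock group then had 1 library, which adds nothing to the estimate of spread and is taken to vary like the others. With the wild-type replicate 3 libraries left out, the fit of group means called 12 of the 21091 tested genes, 4 higher and 8 lower. HB-2 was called in it (−0.88, limma adjusted p = 0.0357) and HAT1 was not (−1.35, adjusted p = 0.104).

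Summed markers of other tissues overlapped between these groups, but the root sum was lower under ACC in each same-numbered pair. The summed root genes were 5798, 6016 and 2291 TPM in wild-type mock and 3542, 4155 and 2116 TPM under ACC. Most of that sum was PYK10, at 5773, 5988 and 2283 TPM in mock and 3517, 4135 and 2113 TPM under ACC. The other root genes, PIN2, EXPA7, COBL9 and RHD6, each overlapped between the groups. By same-numbered pairs PYK10, PIN2 and RHD6 were lower under ACC each time, and EXPA7 and COBL9 went both ways. PIN2 stood at 15.6, 14.4 and 6.86 TPM in mock and at 13.7, 9.62 and 3.06 TPM under ACC. The 9 seed storage genes summed to 479, 792 and 2147 TPM in mock and 251, 314 and 2897 TPM under ACC. None of the genes of these 2 marker lists was listed at 0 in every library of a group. The greening cotyledon genes were 19465, 21108 and 46050 TPM against 27332, 21049 and 48849 TPM. Their part in the differences of the 9 genes was not tested.

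**Figure D2:**
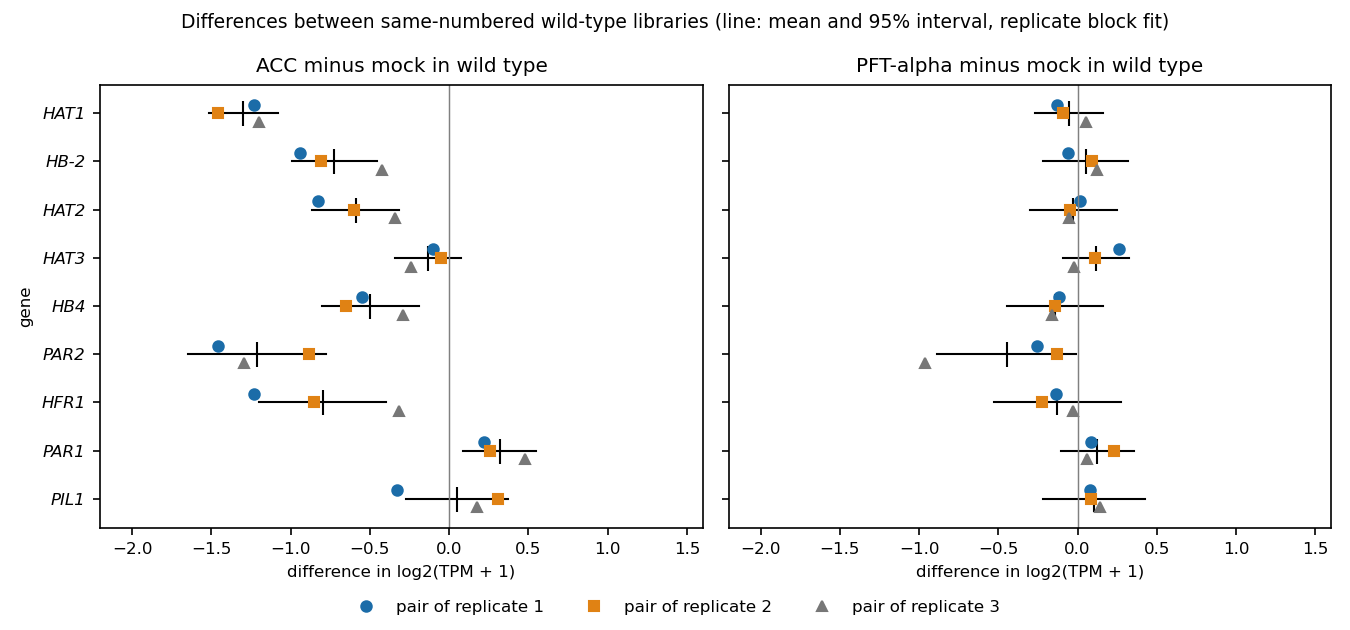
Difference in log2(TPM + 1) between same-numbered wild-type libraries (horizontal axis) for each gene, for ACC minus mock and for PFT-alpha minus mock, with 1 point per pair and a line for the mean and 95% interval of the replicate block fit. HAT1 lay between −1.46 and −1.20 in all 3 ACC pairs, PAR1 above 0 in all 3, and under PFT-alpha the points stayed close to 0 except the PAR2 pair of replicate 3 at −0.96.

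The comparison of PFT-alpha with mock addresses what the compound does when ACC is not given. None of the 9 genes passed in any fit, and the group means and the block fit each called 0 genes (0.0% of those tested), with 147 and 817 genes at an unadjusted p under 0.05. Estimates of library weights called 606 genes in limma, 0 of them among the 9. In the block fit HAT1 differed by −0.06 with a 95% interval of −0.27 to 0.16, HB-2 by 0.05 with −0.22 to 0.32, and HAT2 by −0.03 with −0.30 to 0.25. These intervals hold no difference as large as that of the same gene between ACC and mock, and they still allow small changes either way. HFR1 differed by −0.13 (−0.53 to 0.27), HB4 by −0.14 (−0.45 to 0.16) and HAT3 by 0.12 (−0.09 to 0.32). PAR1 differed by 0.13 (−0.10 to 0.35) and PIL1 by 0.10 (−0.22 to 0.42).

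PAR2 had the widest interval of the 9, with a difference of −0.45 (−0.88 to −0.0096, adjusted p = 1 in limma). Its 3 pairs differed by −0.25, −0.13 and −0.96, so the third carried most of it, and without the 3 replicate 3 libraries the difference was −0.19. No gene of the 9 was free of overlap between PFT-alpha and mock, where 1.08% of all tested genes were higher without overlap and 2.57% lower.

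PFT-alpha against ACC sets the agents side by side at their different doses, and it shares the ACC and PFT-alpha libraries with the comparisons above. The fit of group means called 0 of the 9 and 0 genes in all (0.0%), with 1168 genes at an unadjusted p under 0.05. In the block fit HAT1 (1.24, SE 0.092, adjusted p = 0.00243) and HB-2 (0.77, SE 0.11, adjusted p = 0.0209) were higher under PFT-alpha, where 2.61% of tested genes were called, 1.7% higher and 0.915% lower. HAT2 (0.56, adjusted p = 0.0583), PAR2 (0.77, adjusted p = 0.0964) and HFR1 (0.67, adjusted p = 0.108) did not pass. HAT1 was called in 9 of 9 block fits without 1 wild-type library (limma adjusted p 0.00783 to 0.0338), and HB-2 in 3. These fits called 52 to 530 of the 21091 tested genes. The block over all 13 libraries called 28 genes, 18 higher and 10 lower. HB-2 was called in it (limma adjusted p = 0.0448) and HAT1 was not (0.0602). Leaving out either etr1-1 mock library from the fit of group means left the differences of HAT1 (1.24) and HB-2 (0.77) as they were, because neither uses that group. HAT1, HB-2, HAT2 and HAT3 were higher without overlap, as were 4.89% of all tested genes, and 0 were lower without overlap, as were 4.35%.

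For etr1-1 against wild type, none of the 9 passed in mock or under PFT-alpha in the fit of group means, which called 6 genes (0.0284%) in each, 5 of them higher under PFT-alpha (0.0237%), with 460 and 1438 genes at an unadjusted p under 0.05. In mock HAT1 differed by −0.76 (95% interval −1.41 to −0.11, adjusted p = 1 in limma), and by −0.27 without the library labelled etr1-1 mock 1. HFR1 differed by −0.01 with it and by 0.48 without it. HB-2 (−0.41) and HAT2 (−0.41) were lower without overlap, as were 4.31% of tested genes, and PAR1 (0.60) was higher without overlap, as were 7.12%. Without that library HB-2 differed by −0.35, HAT2 by −0.36 and PAR1 by 0.40.

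Under PFT-alpha, where that library plays no direct part, HFR1 was 0.79 higher in etr1-1 (interval 0.0092 to 1.57, adjusted p = 0.721) and PAR2 0.65 higher (adjusted p = 0.80). HFR1, PAR2, HB4 and PAR1 were higher in etr1-1 without overlap, and PIL1 lower, where 15.3% of all tested genes were higher and 16.6% lower in that way. Of the fits run, members passed in the one with library weights. That fit called 3293 of the 21091 tested genes, 1431 higher in etr1-1 and 1862 lower. HFR1 (0.56, limma adjusted p = 0.0254) and HB4 (0.38, adjusted p = 0.0285) were among the higher. HB-2 (−0.30, limma adjusted p = 0.0111) and HAT2 (−0.32, adjusted p = 0.0117) were among the lower. The summed seed storage genes were 4600 and 4705 TPM in etr1-1 with PFT-alpha and 259, 590 and 1742 TPM in wild type with it, and their part was not tested.

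PFT-alpha against mock within etr1-1 called 3 genes (0.0142%) in the fit of group means and 0 of the 9, with 418 genes at an unadjusted p under 0.05. HAT1, HB-2, HAT2, HB4 and HFR1 were higher in both PFT-alpha libraries than in both mock libraries, as were 13.4% of all tested genes, and 0 were lower in that way, as were 24.5%. HAT1 differed by 0.66 (interval −0.06 to 1.37) and HFR1 by 0.67 (−0.18 to 1.52), and without etr1-1 mock 1 by 0.16 and 0.18. The size of these differences therefore rests on that library. The seed storage genes summed to 332 and 4178 TPM in etr1-1 mock and to 4600 and 4705 TPM under PFT-alpha, and their part was not tested. The test of whether PFT-alpha differed between genotypes called 1 gene (0.00474%) and 0 of the 9, with 333 genes at an unadjusted p under 0.05. In it HFR1 had the largest value, at 0.80 (interval −0.30 to 1.90, limma adjusted p = 0.9999), and 0.31 without etr1-1 mock 1.

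The difference between both etr1-1 mock libraries was set beside the ACC difference of the wild type. From mock 2 to mock 1 HAT1 was −0.98 (ACC against mock −1.30), HFR1 −0.98 (−0.80), PAR2 −0.76 (−1.21) and HB4 −0.63 (−0.50), all on the log2(TPM + 1) scale. PAR1 was 0.41 (0.32). HB-2 (−0.12 beside −0.72) and HAT2 (−0.10 beside −0.59) differed little between these libraries. PIL1 was 0.84 higher in mock 1, with 0.05 under ACC. The sign was shared by 8 of the 9 genes, with HAT3 the exception, and by 10 of 10 ethylene response genes. Among the latter ORS1 was at 83.2 and 6.39 TPM. The 8 include PIL1, with an ACC difference of only 0.05, and HB-2 and HAT2. How many of all tested genes shared the sign was not counted, so these counts have no reference. All values of this paragraph except those of ACC against mock compare etr1-1 mock 1 with etr1-1 mock 2. These are differences between single libraries, and they carry no test.

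**Figure D3:**
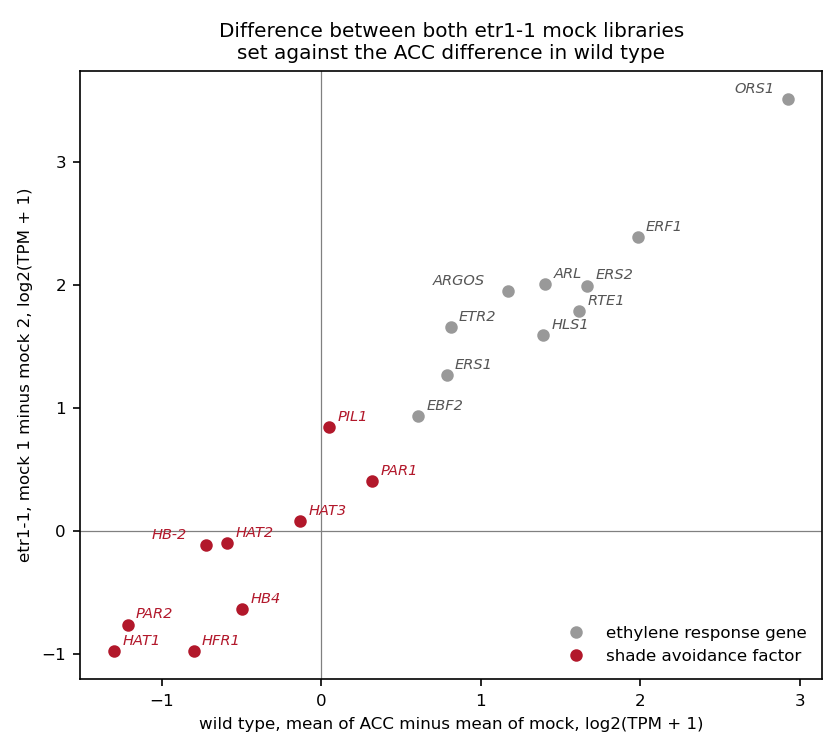
For the 9 genes and for 10 ethylene response genes, the wild-type difference of the ACC mean from the mock mean (horizontal axis) and the difference of etr1-1 mock 1 from etr1-1 mock 2 (vertical axis), both in log2(TPM + 1). The ethylene response genes lay at upper right, HAT1, HFR1, PAR2 and HB4 at lower left, and HB-2 and HAT2 near 0 on the vertical axis.

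Likeness of the 9 genes across the 13 libraries is given as Pearson's r of log2(TPM + 1), over libraries that share treatments and replicate numbers. HB-2 and HAT2 had an r of 0.94, HB-2 and HAT1 0.92, and HAT1 and HAT2 0.87. PAR2 and HFR1 had 0.91. Without the 3 wild-type replicate 3 libraries these values were 0.95, 0.92, 0.86 and 0.96 over 10 libraries. HB4 came close to HFR1 only without those libraries, with 0.97 against 0.61. PAR1 ran opposite to HAT1 there, at −0.71, and at −0.19 over all 13. The genes did not split cleanly. HAT1 had 0.78 with PAR2 and 0.76 with HFR1 over all 13, and 0.82 and 0.79 over the 10.

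**Figure D4:**
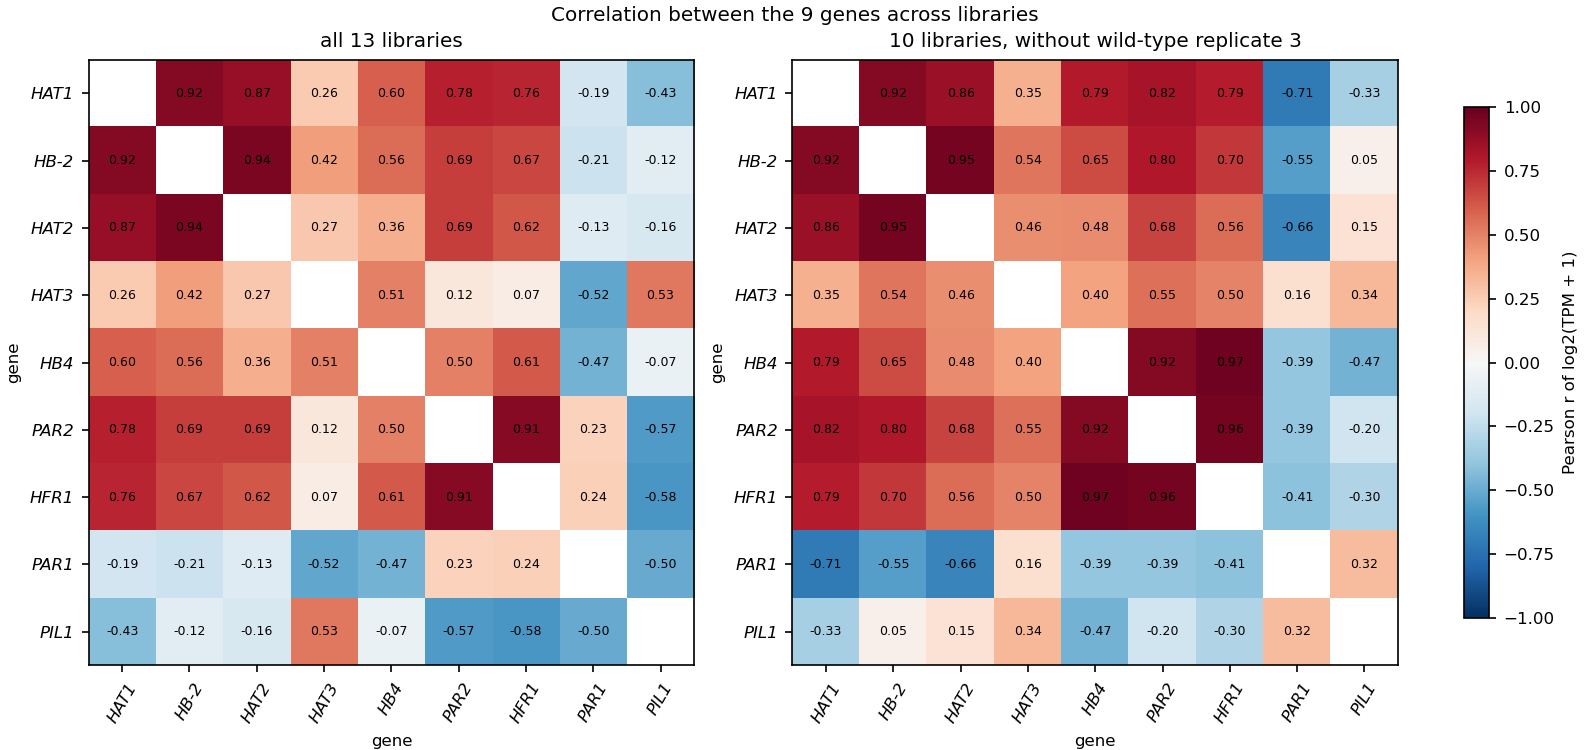
Pearson's r of log2(TPM + 1) between each 2 of the 9 genes, over all 13 libraries and over the 10 without wild-type replicate 3, on a colour scale from −1 (blue) to 1 (red) with the value in each cell. HAT1, HB-2 and HAT2 formed a block of 0.86 and above in both, and HB4 joined PAR2 and HFR1 only in the smaller set.

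The replicate 3 libraries moved the genes in opposite directions. Relative to replicates 1 and 2 of the same treatment, PAR1 was lower in them by 0.33 to 0.66 on the log2(TPM + 1) scale, HAT1 by 0.41 to 0.57 and PAR2 by 0.40 to 1.17. PIL1 was higher by 0.49 to 0.67, HB4 by 0.21 to 0.56 and HAT3 by 0.10 to 0.31. HB-2, HAT2 and HFR1 were lower in mock and PFT-alpha, and differed by −0.10 to 0.10 under ACC.

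Outside the 9, the genes most like HFR1 over the 13 libraries were RABG3B (r = 0.987) of the Rab GTPases, AT5G57785 (0.975) and the expansin gene EXPA8 (0.974). For HAT1 they were AT1G11800 (0.972), TRM10 (0.968) and the auxin response repressor IAA6 (0.968). For HB-2 they were BON2 (0.954), the auxin-induced growth gene SAUR19 (0.949) and AT3G19460 (0.946), and for HAT2 the cytochrome P450 gene CYP86A4 (0.970), AT4G19975 (0.942) and AT1G76240 (0.938). PAR2 was most like SFH3 (0.981), AT4G33080 (0.976) and AT1G64330 (0.974), and HB4 most like SCPL34 (0.970), FAH1 (0.968) and the aquaporin gene PIP1;4 (0.959). PAR1 was most like AT5G16470 (0.973), AT5G60680 (0.936) and ERD15 (0.933), and without replicate 3 of the wild type these r were 0.875, 0.769 and 0.702. PIL1 was most like RPAC43 (0.941), AT4G31000 (0.933) and AT5G37290 (0.925), and HAT3 most like SRT2 (0.921), TRM25 (0.863) and AT1G07803 (0.853).

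The rest of the pathway was read from lists of known genes, with the block fit over the 9 wild-type libraries for ACC against mock. Among 5 other HD-Zip II genes (HAT9, HAT14, HAT22, HB17 and HB18) 0 passed, with a median of 0.03 and the largest difference for HAT22 (0.33, adjusted p = 0.367 in limma). Among 12 small HLH and related bHLH growth regulators, of which 10 were tested, PRE1, a small HLH protein that promotes elongation (−0.98, adjusted p = 0.0244), and BIM1 of brassinosteroid signalling (−0.56, adjusted p = 0.0116) fell and 0 rose. Among 12 phytochrome and PIF genes PIF4 fell (−1.04, adjusted p = 0.00698) while PIF3 (1.01, adjusted p = 0.00334) and PIF6, listed as PIL2 (1.14, adjusted p = 0.0224), rose. PIF3 stood at 105, 88.5 and 106 TPM in mock and at 194, 213 and 196 TPM under ACC.

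COP1 is the ubiquitin ligase that removes HFR1 protein in darkness. Among 11 genes of the COP1 complex and its target factors, HYH (−1.05, adjusted p = 0.0116), a relative of HY5, and the COP1 partner SPA1 (−0.50, adjusted p = 0.0464) fell and 0 rose. Among 16 other shade-induced genes, the auxin response genes IAA19 (−1.50, adjusted p = 0.0106) and IAA29 (−0.71, adjusted p = 0.0208), the auxin synthesis gene YUC8 (−0.80, adjusted p = 0.042) and the gibberellin synthesis gene GA20OX1 (−0.84, adjusted p = 0.0396) fell, and the wall enzyme gene XTH15 rose (0.75, adjusted p = 0.0151). All 10 of 10 ethylene response genes rose, with ORS1 the furthest (2.93, adjusted p = 0.00112). Against these, 3.93% of all tested genes fell and 1.57% rose. The lists were also chosen with earlier results of these data known, so their counts are descriptions.

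For PFT-alpha against mock 0 genes of any of these lists passed, in the fit of group means or in the block fit. For PFT-alpha against ACC the block fit called PIF4 (0.86, adjusted p = 0.0244), HYH (0.93, adjusted p = 0.032), BIM1 (0.50, adjusted p = 0.0317) and IAA19 (1.14, adjusted p = 0.0459) higher, and PIF3 lower (−0.83, adjusted p = 0.0126). Of 10 ethylene response genes 9 were lower, and 0 of the 5 other HD-Zip II genes passed. In the fit of group means over 13 libraries 0 genes of any of these lists passed in any comparison.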

How the data were processed

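Polyadenylated RNA of whole seedlings was sequenced as stranded libraries of 2 × 150 bp reads, per the labels' protocols. The submitters' processing notes name TAIR10, fastp, HISAT2, HISAT, StringTie, RSEM and DESeq2, with no versions or roles. The deposited table holds TPM per gene, per the file headers, so the values are per length and per library total and hold no counts; 5 columns of group means were not used. The 9 deposited gene lengths equal transcript lengths in TAIR10.1, the build used here for coordinates and upstream bases, and none of the 9 genes overlaps another gene. Depth was estimated from the steps of low values: after subtracting 210 to 250 bases from each length, 80.5% to 85.4% of low values lay within 0.15 of a whole fragment. The length subtracted was 240 or 250 bases in the 9 wild-type libraries and 210 or 220 bases in the 4 etr1-1 libraries.

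The test was limma 3.58.1 in R 4.3.3, two-sided, with an intensity trend on log2(TPM + 1), 1 mean per group, and Benjamini-Hochberg adjustment at 0.05 over the 21091 genes that reached 1 TPM in 2 or more libraries (11942 did not). Fold changes on this scale understate those of low genes. Fits were run on simulated data with independent noise, the same spread for every gene and no replicate 3 offset. That run checks the code and not how the fits behave on these libraries. Same-numbered wild-type libraries were taken as pairs because their deviations from group means correlated in all 9 pairs (r 0.28 to 0.77). Differently numbered wild-type libraries ranged from −0.64 to 0.54: replicates 1 and 2 correlated at 0.29 to 0.54, about as well as within a number, and replicate 3 was negative with both. The correlations thus set replicate 3 apart and do not tell replicate 1 from 2. Across genotypes r of same-numbered libraries was −0.22 to 0.24 and in etr1-1 0.13. Motifs were searched on both strands over 1000 bases before the annotated start, and overlapping matches count separately. The 9 genes and all lists were chosen with earlier results of these data known. Named genes outside them passed a fit, had the largest difference of their list, or were the 3 most correlated with a member.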

Additional observations from a re-analysis of the deposited data

How the results depend on the processing

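With the replicate block over the 9 wild-type libraries, limma called 5 of the 9 genes and 1159 genes in all for ACC against mock, and 2 and 551 for PFT-alpha against ACC, where the fit of group means called 0 and 2, and 0 and 0. The replicate block over all 13 libraries called 4 and 710, and 1 and 28. Without the 3 wild-type replicate 3 libraries these were 1 and 12, and 1 and 13. Without etr1-1 mock 1 and with a batch term for wild-type replicate 3 they were 7 and 1958, and 4 and 1105. Library weights gave 6 and 2142, and 5 and 1190. PFT-alpha against ACC reached 1 gene in all with a pseudocount of 0.1 or with no filter. For PFT-alpha against mock, 3 genes in all were called without replicate 3 and 606 with library weights. For etr1-1 against wild type in mock, genes in all numbered 17 with the block over 13, 16 without replicate 3, 282 in the fit with the batch term and 3 with a pseudocount of 0.1, beside 6. Under PFT-alpha they numbered 13, 11 and 813 in the first 3 of these fits, 3 with quantile normalization, 23 with no filter and 3293 with library weights, of which 4 were among the 9. For PFT-alpha in etr1-1 they numbered 5, 13 and 5, and 18 with no filter, beside 3. For the interaction they numbered 2, 2 and 4, 2 with quantile normalization, 0 with a pseudocount of 0.1, 13 with no filter and 5 with library weights, beside 1. The cause of these shifts was not tested.

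Leaving out 1 library at a time, with and without the block, gave 0 to 5 of the 9 genes and 0 to 1099 genes in all for ACC against mock, 0 to 4 and 0 to 530 for PFT-alpha against ACC, and 0 to 2 genes in all for PFT-alpha against mock. It gave 3 to 55 for etr1-1 in mock, 2 to 100 for etr1-1 under PFT-alpha, 2 to 200 for PFT-alpha in etr1-1 and 1 to 135 for the interaction. The leave-one-out fits with the block were chosen after seeing the data. In etr1-1, where replicates share only a number, the block over 13 libraries called 0 of the 9. Over these alternatives 58 of 1593 differences of the 9 genes changed sign, none of them called. Many of the 1593 could not change. In the fit of group means, leaving out a library outside the compared groups leaves the difference as it was, and so does dropping the filter. The 58 are therefore not a measure of how firm the differences are. HB4, at an estimated 51.9 to 171 fragments, has the least depth of the 9.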
